A study of Mus musculus with 6 samples.

Results

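Keratins of oral, esophageal, glandular, follicle-canal and simple epithelia were examined in epidermal cells of newborn mice. The 9 members, Krt4, Krt13, Krt7, Krt19, Krt23, Krt76, Krt78, Krt79 and Krt80, were chosen by symbol among 24453 gene symbols, which include 55 keratins, and all 9 were found. The Ring1a/b double-knockout group (genotype Ring1a-/- Ring1b-/-, 3 libraries) and the Control group (genotype given only as control, 3 libraries) were both taken at postnatal day 0. In each, back-skin cells carrying EpCAM and Sca1 with high α6-integrin, a sort for interfollicular epidermis enriched in progenitors, were profiled by RNA sequencing. Polycomb repressive complex 1 (PRC1) marks histone H2A with ubiquitin at silent developmental genes, and its ligase subunits are Ring1a, made by Ring1, and Ring1b, made by Rnf2. The labels used here name no Cre line, deleted exon or cell type of deletion. They also do not say whether each library is a separate animal, so the p-values reflect variation among these libraries, which may in part be technical. Libraries of each group differ in the sex-linked transcripts given below, so they do not all hold the same animal or animals.

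Keratins are the intermediate filament proteins of epithelial cells, and each filament is built from pairs of an acidic type I and a basic type II chain. Which pair a cell makes depends on its epithelium and layer: Krt5 and Krt14 mark basal epidermis, Krt1 and Krt10 its upper layers, Krt8 and Krt18 simple epithelia. The members are keratins that interfollicular epidermis is not mainly built from. Of the 9, the 6 type II genes lie in the keratin cluster of chromosome 15 (Krt4, Krt7, Krt76, Krt78, Krt79 and Krt80) and the 3 type I genes in that of chromosome 11 (Krt13, Krt19 and Krt23), in GENCODE M21 on GRCm38.

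Promoter windows from RefSeq (GRCm38.p6), 250 bases before to 50 after the annotated start, were at hand for 6 of the 9 members. The windows of Krt79 and Krt7 are printed 5′ to 3′ in lower case because these 2 genes had the largest level differences among the members, with CG dinucleotides in capitals, since PRC1 is known to be recruited to CG-rich DNA.
Krt79 (chr15:101940275-101940574, minus strand): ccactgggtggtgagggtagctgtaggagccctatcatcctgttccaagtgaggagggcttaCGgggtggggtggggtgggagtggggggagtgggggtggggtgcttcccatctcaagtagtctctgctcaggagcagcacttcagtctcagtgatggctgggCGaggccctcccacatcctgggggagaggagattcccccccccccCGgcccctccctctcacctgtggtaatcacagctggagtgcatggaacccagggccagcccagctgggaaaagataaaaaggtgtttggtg
Krt7 (chr15:101412153-101412452, plus strand): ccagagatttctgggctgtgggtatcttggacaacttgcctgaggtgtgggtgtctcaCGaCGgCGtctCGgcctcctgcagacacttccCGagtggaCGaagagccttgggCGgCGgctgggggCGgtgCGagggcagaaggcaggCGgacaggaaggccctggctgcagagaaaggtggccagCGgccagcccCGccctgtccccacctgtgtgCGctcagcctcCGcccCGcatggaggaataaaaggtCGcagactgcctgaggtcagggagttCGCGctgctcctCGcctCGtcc
The Krt7 window follows the RefSeq start, which lies inside the GENCODE gene bounds given below. The Krt79 window held 3 CG dinucleotides, an observed-to-expected CG ratio of 0.107 that lay at the 14.4th percentile of 32841 mouse promoter windows. The Krt7 window held 21, a ratio of 0.641 at the 66.9th percentile. The median ratio of all windows was 0.384. The word TATAAA, searched on both strands, was absent from both windows and present in 13.6% of all windows, and among the members it was found in that of Krt76 alone. The palindrome TGANTCA was absent from both and present in 7.81% of all windows, and among the members it was found in both windows of Krt13. These are descriptions of letters in a window and do not test binding.

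The libraries held 18951665 to 31187270 counts, and 3 counts, the limit that 0 counts allow, equalled 0.0975 to 0.154 CPM (read counts scaled to a common library size with TMM factors). All 9 listed genes of basal interfollicular epidermis were detected, with a summed level of 27188 to 32833 CPM in double-knockout and 30697 to 45102 CPM in Control libraries. Of these 9, Trp63, the basal lineage factor, and Col17a1, a hemidesmosome collagen, fell (log2 fold changes -0.79 and -0.74), and neither call held without Control replicate 2 or 3 or double-knockout replicate 2 or 3. Ring1 had 1.66, 5.20 and 14.2 CPM in double-knockout replicates 1 to 3, against 30.9, 17.1 and 3.90 CPM in Control replicates 1 to 3, so the order within replicate 3 went against the labels. Rnf2 had 55.4 to 64.1 CPM in the double-knockout and 43.2 to 63.2 CPM in the Control libraries, so it was not lower. Whether its counts include reads outside a deleted part was not tested. Replicate 1 of both groups stood apart on the second principal component, with 18.5% of the variance. The sexes were not balanced: Xist, made from the inactive X of females, had 6133, 4736 and 4.48 CPM in double-knockout and 10.5, 6.91 and 1757 CPM in Control replicates 1 to 3, and the Y-linked Ddx3y had 0.0346, 0.206 and 76.2 CPM in double-knockout and 91.2, 102 and 59.7 CPM in Control replicates 1 to 3. Control replicate 3 thus held both transcripts, and fits with the Xist level as a covariate were run for this reason. Many results that change without replicate 1 or replicate 3 of both groups, but not all, are given in those fits too. The calls of Trp63 and Col17a1 also ended without replicate 3 of both groups (edgeR adjusted p = 0.236 and 0.293). Groups are called by their labels.

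Krt79 was far higher in the double-knockout epidermis, Krt7 was higher by value but missed the threshold, Krt80 did not pass and had nearly the same mean in both groups, and the other members were scarce in both groups. Of the 8 members with enough counts to be tested, 1 rose (edgeR quasi-likelihood test, Benjamini-Hochberg adjusted p under 0.05 over 14890 genes), where 7.17% of all tested genes rose. None fell (2.98% of all tested genes fell), 0 were lower at an unadjusted p under 0.05, and DESeq2 and limma-voom also called 0 lower. Those tests called 2 higher each, Krt79 and Krt7. In 3 of the 8 (Krt79, Krt7 and Krt19) every double-knockout library lay above every Control library, as in 17.6% of all tested genes, and no member had the groups apart the other way round (in all, 32.4% of tested genes had groups apart in either direction). A log2 fold change of 2 or more was seen in 4 of the 8 (Krt79, Krt7, Krt78 and Krt23) and in 6.78% of all tested genes. The median log2 fold change of the 8 was 2.09, against 0.00 for all tested genes, and it was 1.29 without double-knockout replicate 2. The members were chosen with earlier results of these data known, so these contrasts with all genes are descriptions and no independent support. A scarce gene enters the test only if counted in some libraries, so the 8 do not stand for all 9.

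**Figure D1:**
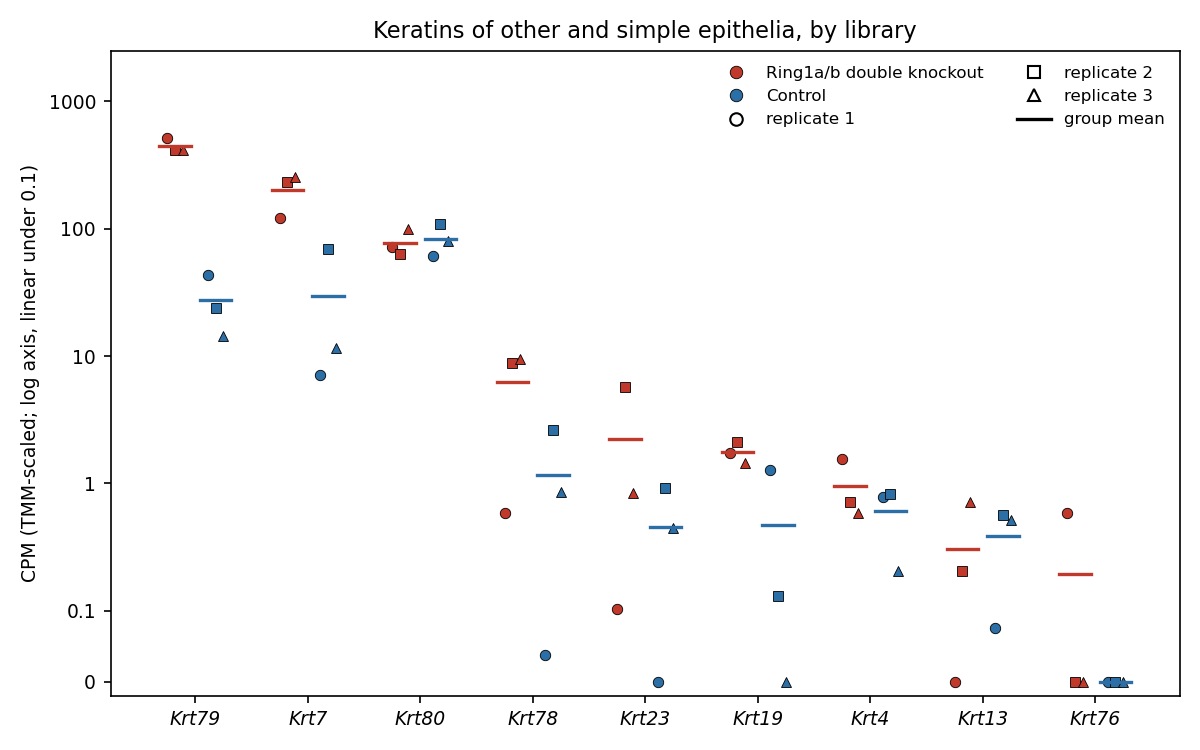
CPM (vertical, log axis that turns linear under 0.1) of each member in the 3 double-knockout and 3 Control libraries, with symbols for replicates and bars for group means. The double-knockout libraries lie at 415 to 512 CPM for Krt79, above all Control libraries, while for Krt80 the groups overlap.

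Krt79 marks the cells that open the hair canal and line the infundibulum, the funnel of the follicle at the skin surface, in mouse skin. The gene (ENSMUSG00000061397.8) spans bases 101929332 to 101940324 of chromosome 15, minus strand. It had 512, 415 and 416 CPM in double-knockout replicates 1 to 3, against 43.6, 23.9 and 14.5 CPM in Control replicates 1 to 3. The double-knockout libraries agreed within 1.23-fold, the Control libraries spread over 3.01-fold, and the lowest double-knockout library was 9.51 times the highest Control library. The mean was 448 ± 55.8 CPM in double-knockout and 27.3 ± 14.9 CPM in Control libraries (SD, n = 3 each), a log2 fold change of 4.03 ± 0.39 (SE) or 16.4-fold (edgeR adjusted p = 8.62e-04). Of all tested genes, 302 (2.03%) had a log2 fold change at least as large. The call held in all 18 other settings, at 3.72 to 4.54, including the fits without replicate 1 (4.44) or replicate 3 (3.77) of both groups and the fit with the Xist covariate (4.24).

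Krt7 is a type II keratin of simple and glandular epithelia such as ducts and bladder. The gene (ENSMUSG00000023039.17) spans bases 101411043 to 101430313 of chromosome 15, plus strand. It had 121, 233 and 255 CPM in double-knockout replicates 1 to 3, against 7.13, 69.6 and 11.5 CPM in Control replicates 1 to 3. The groups did not overlap, but Control replicate 2 was far above the other Control libraries, and the lowest double-knockout library was only 1.74 times that level. The log2 fold change of 2.79 ± 0.79 (SE, n = 3 each) missed the threshold (edgeR adjusted p = 0.0587). It passed without Control replicate 2 (4.45, edgeR adjusted p = 0.00196), and over the fits that each left out 1 library the adjusted p was 0.00196 to 0.159. It also passed without replicate 1 of both groups (2.60, edgeR adjusted p = 0.0310), with a replicate block, without a count filter and with DESeq2 or limma-voom, but not with the Xist covariate (3.39, edgeR adjusted p = 0.0687) or without replicate 3 of both groups (2.20, edgeR adjusted p = 0.271).

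Krt80 is a type II keratin known to lie near desmosomes in cells advanced in differentiation. It spans bases 101347444 to 101370162 of chromosome 15 (ENSMUSG00000037185.9, minus strand). It had 71.6, 63.2 and 99.0 CPM in double-knockout replicates 1 to 3, against 61.2, 109.8 and 80.3 CPM in Control replicates 1 to 3. The groups overlapped, and the log2 fold change was -0.10 ± 0.26 (SE; edgeR adjusted p = 0.859), with an approximate 95% interval of -0.62 to 0.41. Its sign turned in 3 of 18 settings, at 0.01 to 0.14.

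Per kilobase of exon, the order of the 3 abundant members differed between the groups. In double-knockout libraries Krt79 led with 94.2 ± 11.7 CPM per kb, before Krt7 with 28.8 ± 10.2 and Krt80 with 12.2 ± 2.93 (mean ± SD, n = 3), and each lay apart from the next in every library. In Control libraries Krt80 led with 13.1 ± 3.83 CPM per kb, before Krt79 with 5.75 ± 3.13 and Krt7 with 4.17 ± 4.95, and the ranges of Krt79 and Krt7 overlapped. The range of Krt80 (9.57 to 17.2) also met that of Krt7 (1.01 to 9.88). GENCODE's summed exon lengths, 4753, 7049 and 6393 bases for Krt79, Krt7 and Krt80, are much longer than their coding sequences of 1593, 1371 and 1356 bases. Per coding kilobase, a scale added after the data were seen, the order in double-knockout libraries was kept, while in Control libraries Krt7 (21.4 ± 25.5) and Krt79 (17.2 ± 9.34) changed places below Krt80 (61.8 ± 18.1), whose range again met that of Krt7. The Krt79 level per kb of exon was 2.33 to 4.38% of that of Krt14 in double-knockout libraries and 0.0655 to 0.428% in Control libraries. This share depends on the length used and is larger per coding kilobase. On that scale Krt79 and Krt14 averaged 281 and 3704 CPM in double-knockout libraries, and 17.2 and 4616 CPM in Control libraries. Summed, the 9 members made up 2.18 to 2.63% of all keratin CPM in double-knockout libraries, against 0.248 to 0.532% in Control libraries. Krt79, Krt7 and Krt80 together held 97.6 to 99.4% of the members' CPM in each library of either group.

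**Figure D2:**
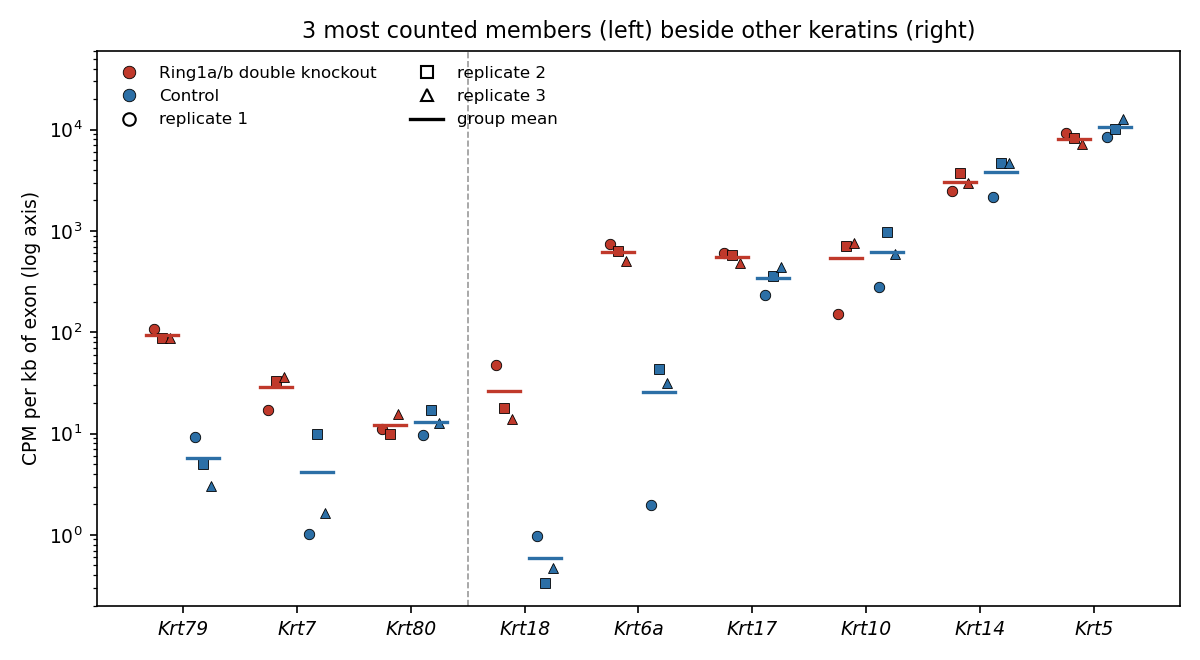
CPM per kb of exon (vertical, log axis) of Krt79, Krt7 and Krt80 and of 6 other keratins, per library, with bars for group means. Krt79 averaged 94.2 CPM per kb in double-knockout and 5.75 in Control libraries, well below the basal keratins Krt14 and Krt5 in both groups.

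Krt78 is a type II keratin of suprabasal cells in stratified epithelia, and its gene lies next to Krt79. It had 0.588, 8.80 and 9.49 CPM in double-knockout replicates 1 to 3, against 0.0375, 2.62 and 0.855 CPM in Control replicates 1 to 3. The groups overlapped, since double-knockout replicate 1 lay below 2 Control libraries, and the log2 fold change of 2.43 ± 1.22 (SE) did not pass (edgeR adjusted p = 0.269). It passed without replicate 1 of both groups (2.41, edgeR adjusted p = 0.0210) and with the replicate block (2.79, edgeR adjusted p = 0.0343). The members split by replicate. Krt79 was highest in replicate 1 of both groups, and Krt4, Krt19, Krt76 and Krt80 were not alike in the 2 groups. Replicate 1 was the lowest library of its group for Krt78, Krt7, Krt23 and Krt13, in both groups. The suprabasal keratin Krt10 was likewise lowest in replicate 1, with 322, 1506 and 1600.3 CPM in double-knockout replicates 1 to 3 and 593, 2056 and 1254 CPM in Control replicates 1 to 3. The part of this in the Krt7 and Krt78 results was not tested.

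The type I members were scarce. Krt19, a keratin of simple epithelia that also marks follicle stem cells, had 1.73, 2.11 and 1.46 CPM in double-knockout replicates 1 to 3, against 1.28, 0.131 and 0 CPM in Control replicates 1 to 3. The groups did not overlap but Control replicate 1 came close, with 34 counts against 3 and 0 in the other Control libraries. The log2 fold change of 1.90 ± 1.24 (SE) did not pass (edgeR adjusted p = 0.394), and it passed without replicate 1 of both groups (4.78, edgeR adjusted p = 0.0319). Krt23, a type I keratin of glandular epithelia, had 0.104, 5.77 and 0.845 CPM in double-knockout replicates 1 to 3, against 0, 0.918 and 0.445 CPM in Control replicates 1 to 3. Double-knockout replicate 2 alone stood clear of the Control libraries (log2 fold change 2.29, edgeR adjusted p = 0.397), and without it the log2 fold change was 0.07.

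Krt4 and Krt13 form the filament pair of the upper layers of mouth and esophagus. Krt4 had 1.56, 0.721 and 0.585 CPM in double-knockout replicates 1 to 3, against 0.788, 0.830 and 0.205 CPM in Control replicates 1 to 3. Krt13 had 0, 0.206 and 0.715 CPM in double-knockout replicates 1 to 3, against 0.0750, 0.568 and 0.513 CPM in Control replicates 1 to 3. Both overlapped between groups, with log2 fold changes of 0.66 ± 0.81 for Krt4 (edgeR adjusted p = 0.688) and -0.30 ± 1.30 for Krt13 (edgeR adjusted p = 0.918; SE). These levels rest on 45 counts or fewer per library. Krt76, a type II keratin of the palate, had 17 counts in double-knockout replicate 1 (0.588 CPM) and 0 counts in all other libraries of both groups, and was not tested.

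**Figure D3:**
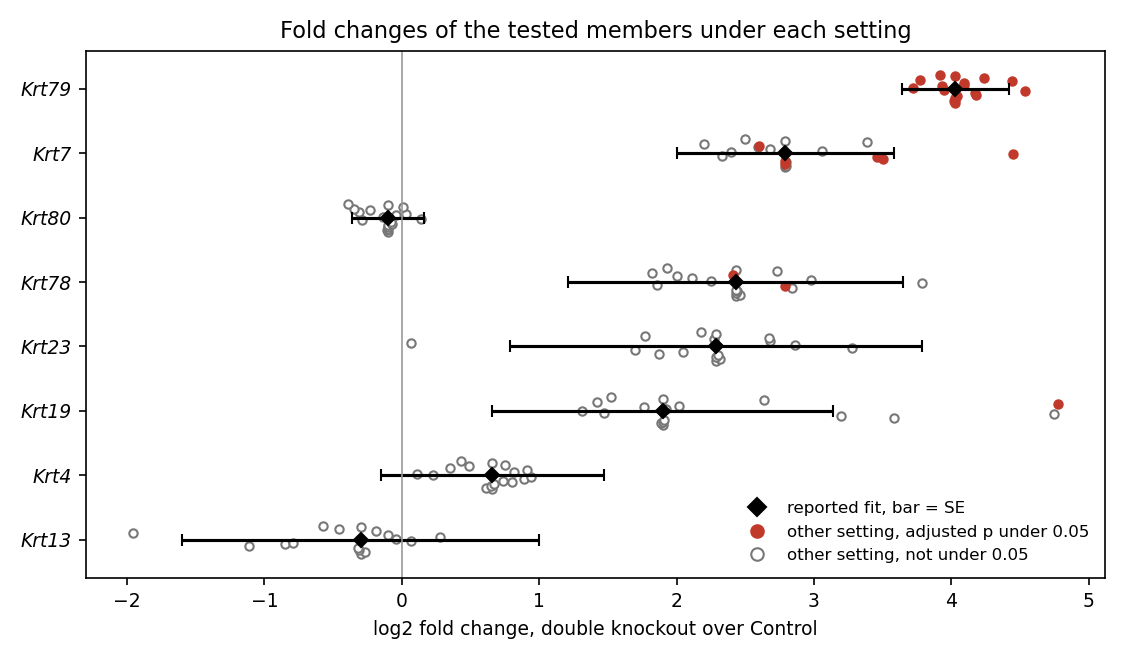
Log2 fold change (horizontal, double knockout over Control) of the 8 tested members, with a diamond and SE bar for the reported fit and a circle for each other setting, red where the adjusted p was under 0.05. Krt79 is red in all 18 settings, at 3.72 to 4.54, and the circles of Krt7 spread over 2.20 to 4.45.

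Within the chromosome 15 cluster, some genes next to each other had unlike values and others, such as Krt7 and Krt87, similar ones. Differences between neighbours were not tested. Krt79 (log2 fold change 4.03) lies between Krt4 (0.66), 4.60 kb away, and Krt78 (2.43), 5.68 kb away, and neither neighbour passed. Krt8, 42.4 kb beyond Krt78, had 0.195 to 1.97 CPM in double-knockout and 0 to 1.20 CPM in Control libraries, while Krt18, the filament partner of Krt8 and its neighbour in the cluster, rose. Krt18 had 67.5, 25.4 and 19.8 CPM in double-knockout replicates 1 to 3, against 1.39, 0.481 and 0.684 CPM in Control replicates 1 to 3 (log2 fold change 5.45 ± 0.62, SE; edgeR adjusted p = 0.00156). Reads shared with processed copies of Krt8 or Krt18 cannot be told apart in these counts. At the other end of the cluster Krt80 lies 40.9 kb before Krt7, and Krt87, a hair keratin whose gene lies 0.725 kb beyond Krt7, had 2.53 to 3.87 CPM in double-knockout and 0.0342 to 0.699 CPM in Control libraries (log2 fold change 3.73 ± 1.07, SE; edgeR adjusted p = 0.0636). On chromosome 11, the neighbours of Krt13 and Krt19 did not pass in the reported fit. Krt15, a basal and bulge keratin, had a log2 fold change of -1.07 and Krt36, a hair keratin, of 3.93 (edgeR adjusted p = 0.126 and 0.0826). Krt15 passed with DESeq2, without double-knockout replicate 1, without replicate 1 of both groups and with the GC and length offset. Krt36 passed with DESeq2 and limma-voom. Krt9, next to Krt19, and Krt77, next to Krt76, had means of 1.54 and 4.08 CPM in double-knockout and 2.12 and 4.27 CPM in Control libraries. Krt20 and Krt39, on either side of Krt23, were too scarce to test. GENCODE places antisense transcripts over Krt7 and Krt80, and whether reads were counted by strand is unknown here, so their reads could not be told apart.

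**Figure D4:**
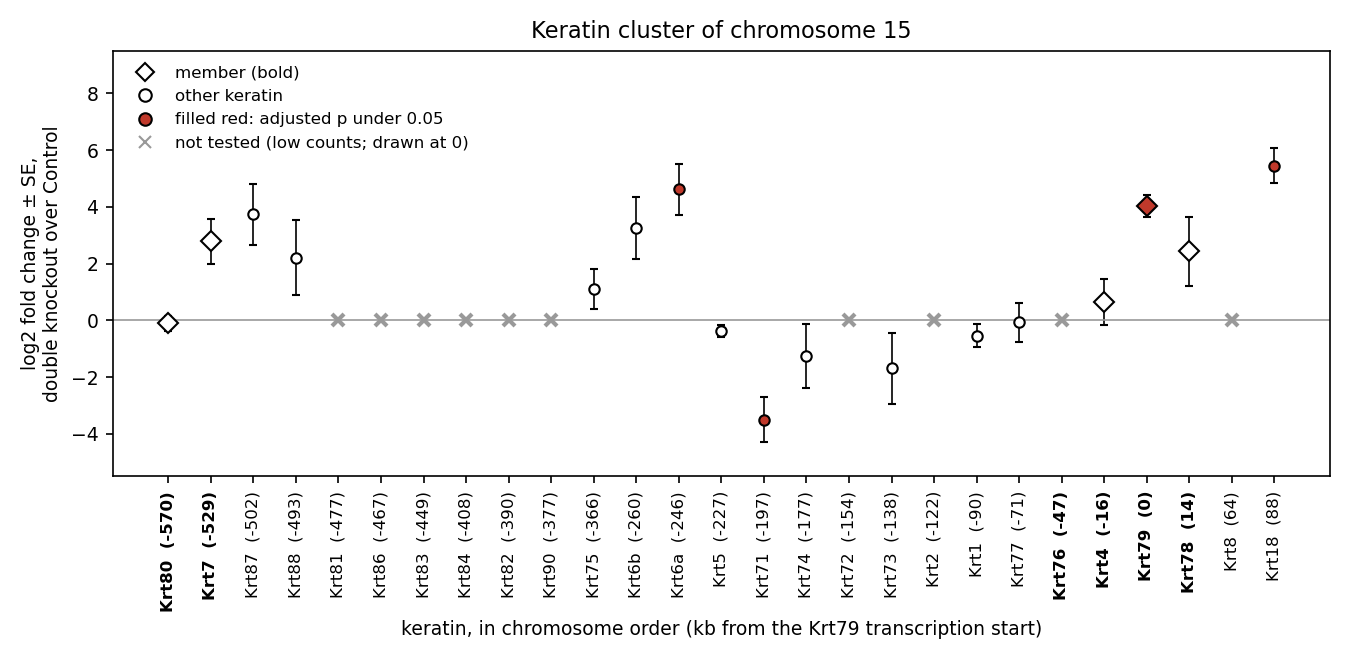
Log2 fold change with SE (vertical, double knockout over Control) of the keratins on chromosome 15 in gene order, with the distance in kb from the Krt79 start beside each name, members in bold and as diamonds, adjusted p under 0.05 in red, untested genes as crosses. Krt79 at 4.03 stands between Krt4 at 0.66 and Krt78 at 2.43, and Krt80 at -0.10 beside Krt7 at 2.79.

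Of 27 tested keratins outside the members (46 in the files), 3 rose and 4 fell. Their median log2 fold change was -0.19, with no stable sign, since it was -0.43 without double-knockout replicate 2, 0.56 without Control replicate 2, 0.40 without replicate 1 of both groups and 0.18 without replicate 3 of both groups. The risers were Krt18, Krt6a, a keratin of wounded epidermis (log2 fold change 4.62), and Krt85, a hair keratin (3.83). Of 5 tested wound and follicle sheath keratins, Krt6a alone rose, but the median log2 fold change was 2.01, near the members' 2.09. All 5 values were positive. In 4 of the 5 every double-knockout library lay above every Control library, as in 17.6% of all tested genes. Krt6b (3.24), Krt16 (2.01) and Krt17 (0.69) were among these and did not pass. The inner root sheath keratins Krt27 and Krt71 fell (-3.49 and -3.50), as did Krt25, with 0 counts in all double-knockout libraries and 4.31, 14.1 and 4.79 CPM in Control replicates 1 to 3. Krt24, a type I keratin of differentiated cells, also fell, with 0 to 0.103 CPM in double-knockout and 0.656 to 3.49 CPM in Control libraries. Of 6 tested keratins of the epidermal layers (7 listed), 0 were called by edgeR and by limma-voom in the fit of all libraries. The listed gene that the count filter left out there was Krt2, with every double-knockout library above every Control library. Krt2 had 0.277, 2.63 and 10.5 CPM in double-knockout replicates 1 to 3, against 0, 0.0874 and 0.103 CPM in Control replicates 1 to 3. DESeq2 called 1 higher and 1 lower, and at an unadjusted p under 0.05 edgeR gave 0 higher and 1 lower. Without replicate 1 of both groups edgeR called 1 higher and 2 lower, Krt15 (-0.73) and Krt5 (-0.59). It called 1 higher and 1 lower without double-knockout replicate 1, and 1 lower with the GC and length offset. Without 1 library, calls ended for Krt6a (Control replicate 3), Krt24 (Control replicate 1 or 3), Krt27 (Control replicate 2 or any double-knockout library), Krt71 (Control replicate 2 or double-knockout replicate 1 or 3) and Krt85 (any library but Control replicate 2), at edgeR adjusted p of 0.0505 to 0.151. The 3 risers became 1 without Control replicate 3, and the 4 fallers 2 without Control replicate 2 or double-knockout replicate 3. The risers were 7 and the fallers 6 without replicate 1 of both groups, and 1 each without replicate 3 of both groups.

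Other genes of the epithelia in which the members are known moved in part. The gene lists of this report were also chosen with earlier results of these data known, so their counts and medians only describe them. Of 13 tested genes of infundibulum and sebaceous gland (18 listed), 3 rose and 0 fell (at an unadjusted p under 0.05 edgeR gave 1 lower, DESeq2 called 1 lower and limma-voom 0). The median log2 fold change was 0.44, between 0.19 without double-knockout replicate 1 and 0.78 without double-knockout replicate 3, and -0.01 with the replicate block. Without replicate 1 of both groups 3 rose and 3 fell. The 3 that rose in the fit of all libraries were Gata6, a factor of the upper follicle (7.36 ± 0.934 against 0.743 ± 0.354 CPM, double knockout against Control), Cst6, a protease inhibitor (6.12 ± 2.40 against 1.01 ± 0.485 CPM), and Dgat2, an enzyme of triglyceride synthesis (25.9 ± 2.49 against 9.68 ± 4.48 CPM; SD, n = 3 each). Without Control replicate 3, double-knockout replicate 2 or double-knockout replicate 3 the count was 1, and 0 without replicate 3 of both groups, where Gata6 had an edgeR adjusted p of 0.0540. Cst6 was lost without Control replicate 1 or 3 or double-knockout replicate 2 or 3, and Dgat2 without any library but Control replicate 1. The junctional marker Lrig1, chosen after its values were seen, had 42.2, 81.5 and 85.5 CPM in double-knockout and 127, 128 and 119 CPM in Control replicates 1 to 3 (log2 fold change -0.84; edgeR adjusted p = 0.0840).

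Of 14 tested genes of simple and glandular epithelium (21 listed), 6 rose and the others did not pass, with a median log2 fold change of 1.69. Ehf, an ETS factor of epithelia, had 40.3 ± 7.85 CPM in double-knockout and 3.60 ± 1.17 CPM in Control libraries, and its relative Elf3 had 9.21 ± 3.75 and 1.13 ± 0.460 CPM (SD, n = 3 each). Krt18 was the third named riser. The count was 9 without replicate 1 and 2 without replicate 3 of both groups, and Elf3 was lost without replicate 3 (edgeR adjusted p = 0.110). Of 15 tested genes of oral and esophageal epithelium (18 listed), 6 rose and 1 fell, with a median log2 fold change of 3.06, which was 1.77 without double-knockout replicate 2. There were 9 risers without replicate 1 and 4 without replicate 3 of both groups, and 1 gene fell in each. Pitx1, a factor of hindlimb and oral ectoderm, had 25.1 ± 1.17 CPM in double-knockout and 0.0488 ± 0.0515 CPM in Control libraries. Sprr1a, a cornified envelope protein, had 1036 ± 893 and 50.3 ± 12.7 CPM, and Tgm3, a transglutaminase of hair and envelope, fell with 4.48 ± 1.53 and 30.2 ± 6.69 CPM. The lists share genes, among them Krt18, Tgm3, Sox2, Grhl3 and Krt6a, so their counts are not independent. Krt18, Grhl3 and Krt6a are among the periderm risers given below, and Krt18 and Sox2 among the Merkel cell risers. Counts cover only genes that passed the count filter.

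Of 17 genes that anchor or organise keratin filaments or form other filaments, 1 rose and none fell (at an unadjusted p under 0.05 there was 1 lower, and DESeq2 and limma-voom each called 1 lower), with a median log2 fold change of -0.04. It was Nes, the intermediate filament protein nestin of neural and other progenitors, with 112 ± 18.8 CPM in double-knockout and 5.74 ± 3.40 CPM in Control libraries. When GC content and transcript length were offset, 5 genes of that list fell.

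Markers of other cells moved with Krt79 and Krt7 in part. Of 23 tested genes of the granular layer and cornification 8 rose and 1 fell, with summed levels of 1825 to 2932 CPM in double-knockout and 829 to 1506 CPM in Control libraries. Abca12, the lipid carrier of lamellar granules, had 70.4 ± 3.17 and 21.0 ± 4.68 CPM, and Klk7, a protease of desquamation, 43.9 ± 15.3 and 9.09 ± 2.29 CPM (SD, n = 3 each, double knockout before Control), and Tgm3 was the gene that fell. The 8 risers became 5 without Control replicate 3, 4 without double-knockout replicate 2, 16 without replicate 1 of both groups and 4 without replicate 3 of both groups. Of 10 tested periderm genes 4 rose, among them Cldn6, a tight junction protein of fetal epithelia, and Grhl3, a factor of barrier formation (log2 fold changes 5.56 and 1.89), with summed levels of 3065 to 4255 CPM in double-knockout and 1274 to 1663 CPM in Control libraries. Of 6 tested Merkel cell genes 4 rose, among them the transcription factors Sox2 and Isl1, both at 0 counts in Control libraries, with summed levels of 55.7 to 105 CPM in double-knockout and 7.08 to 10.9 CPM in Control libraries. Atoh1, the factor that defines Merkel cells, had 0 to 0.154 CPM in double-knockout and 0 to 0.342 CPM in Control libraries, and the neuroendocrine genes Rab3c and Cck were at 0 counts in all libraries. Of 14 tested hair follicle genes 1 rose (Foxe1, a forkhead factor, with 1.07 to 1.85 CPM in double-knockout and 0 to 0.0375 CPM in Control libraries, lost without replicate 3 of both groups at an edgeR adjusted p of 0.107) and 3 fell, the inner root sheath keratins named above, with summed levels of 2233 to 3094 CPM in double-knockout and 3757 to 4199 CPM in Control libraries. The 3 fallers became 1 without Control replicate 2 or double-knockout replicate 3. Of 8 tested dermal fibroblast genes 1 fell (Postn, a matrix protein, log2 fold change -1.10, lost without Control replicate 3 at an edgeR adjusted p of 0.0504), with summed levels of 979 to 1271 CPM in double-knockout and 1362 to 1908 CPM in Control libraries. In the fit of all libraries no melanocyte, immune, or endothelial and muscle gene was called by edgeR or limma-voom. DESeq2 called 2 melanocyte genes higher, as edgeR did 3 at an unadjusted p under 0.05. Without Control replicate 1, and without replicate 1 of both groups, edgeR called 1 melanocyte gene higher. Summed levels were 19.8 to 34.1 CPM in double-knockout and 14.6 to 19.1 CPM in Control libraries for melanocytes, 113 to 347 and 195 to 462 CPM for immune cells, and 7.98 to 36.4 and 8.92 to 48.1 CPM for endothelium and muscle. The part of these cell markers in the Krt79 and Krt7 differences was not tested, and in bulk RNA more cells of a type and more RNA per cell cannot be told apart.

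The genes most like Krt79 over the 6 libraries were Cmtm8, a MARVEL-domain membrane protein, and Pcsk6, a proprotein convertase (Pearson r of log2 CPM 0.999 and 0.998, with a pseudocount of 0.5). Pcsk6 had 30.4 ± 5.45 CPM in double-knockout and 2.56 ± 1.19 CPM in Control libraries. The homeobox gene Dlx5 was most like Krt7 (0.993), with means of 18.9 CPM in double-knockout and 4.28 CPM in Control libraries. For the other tested members the most alike genes were Abi2 (Krt4), Med22 (Krt13), Tpcn1 (Krt19), Cript (Krt23), Slc37a3 (Krt78) and Insig2 (Krt80), at 0.990 to 0.998. With 14890 genes compared over 6 libraries that share the same sort and protocol, values this high are a description and no test.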

How the data were processed

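RNA of cells sorted from newborn back skin was amplified (Nugen Ovation kit) and read from 1 end, per the labels' protocols. The deposited files hold raw, whole-number counts by gene symbol. The submitters' processing notes name HTSeq 0.6.1, TopHat2 2.0.13, DESeq2 1.6.3, Cufflinks 2.2.1 and mm10, with no role for each. The annotation and strand setting are not given in the sources used here. Close paralogs and antisense genes may share reads. The depth and floor per library stand in the report. Floors cover counting error only, while intervals come from the SE of the fit, which includes variation among libraries.

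Counts were fitted over all genes with edgeR 4.0.16 in R 4.3.3: TMM scaling, filterByExpr (minimum count 10, minimum total 15), a quasi-likelihood F test with no covariate, and Benjamini-Hochberg adjustment at 0.05. SE is the log2 fold change divided by the root of F. No list was tested. Members and lists were chosen with earlier results of these data known. Genes are named by a rule: all members, called keratins and the members' neighbours, up to 3 called genes of each list with the smallest p, and the gene most alike each member (2 for the most abundant). Some named genes of the rule are given by count only. Alternatives were other scalings and filters, DESeq2 1.42.0, limma-voom (limma 3.58.1), a replicate block, libraries left out, the Xist level as a covariate, the 20 top genes taken out, and a GC and length offset (known for 97.8% of tested genes). Levels per coding length were added after the data were seen. The fit was tested on simulated counts with changes put into well-counted genes. It recovered 4.48% of 2-fold, 73.1% of 4-fold and 100% of 16-fold changes, with 6 false calls among 14781 genes. A gene that did not pass may therefore still differ by 2-fold, by 4-fold or by more. In the reported fit Krt7, Krt6b and Krt36 did not pass at 6.92-fold, 9.47-fold and 15.2-fold (double knockout over Control). Recovery in scarce genes was not tested. No library was a copy of another (chi-square per degree of freedom of 28.6 or more for each pair). Positions and lengths are from GENCODE M21 on GRCm38. Figures used matplotlib 3.10.9 in Python 3.11.15.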

Additional observations from a re-analysis of the deposited data

How the results depend on the processing

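Over the 18 other settings Krt79 kept its call and direction in all. The members called higher, 1 in the reported fit (Krt79), were 2 without a count filter, with DESeq2 and with limma-voom, 3 with the replicate block, 4 without replicate 1 of both groups and 1 to 2 over the fits that each left out 1 library. The additions were Krt7 in each, with Krt78 under the block and Krt78 and Krt19 without replicate 1. No member was called lower in any setting. Krt13 ran from -1.96 to 0.28 and Krt80 from -0.31 to 0.14 over the leave-one-out fits, and Krt80 was 0.01 with the Xist level as a covariate. Over all genes, those higher were 1683 with DESeq2, 1633 without replicate 1 and 354 without replicate 3 of both groups, 636 with the Xist covariate and 630 to 957 over the leave-one-out fits, against 1068 in the reported fit. Those lower were 877, 1061, 85 and 174 in the same order, 930 with the GC and length offset and 174 to 436 over the leave-one-out fits, against 444. The offset shifted the median over all genes by -0.13 (log2), and 49.3% of its calls were higher, against 70.6%. The cause of these shifts was not tested. The replicate numbers were not taken to pair the samples: same-numbered libraries of the 2 groups had correlations of their deviations of 0.175, 0.228 and 0.0773, and each library correlated best with its own number, a hint from the data and not the design. Under the replicate block 1451 genes were called, against 1512, and the log2 fold change of Krt79 was 4.17. Krt13, Krt19, Krt23, Krt76 and Krt78 had 3 counts or fewer in at least 1 library, where counting error is large.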
